A study of Mus musculus with 4 samples.

Results

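The 10 genes Fkbp5, Tsc22d3, Zbtb16, Sgk1, Mt1, Mt2, Cebpd, Cdkn1a, Errfi1 and Nr3c1 were chosen by symbol, as genes of the glucocorticoid response, the pair of broadly expressed metallothioneins and the glucocorticoid receptor, and all 10 were found among the 38087 genes of the joined tables. RNA sequencing compared 2 libraries of Gata4 KO with 2 libraries of control endothelial cells, sorted as eGFP+ CD31+ cells from the ventricles of healthy hearts of C57BL/6 mice. Mice of both groups carried the Tie2-CreERT2 transgene and a Cre-dependent eGFP reporter in the Rosa locus, and were fed tamoxifen in the chow, at 40 mg/kg of body weight, for 4 weeks from 4 weeks of age until isolation at 8 weeks. In the Gata4 KO group loxP-flanked Gata4 was recombined as well, per the labels' protocols; whether control mice carried loxP alleles of Gata4 is not stated. Tie2 regulatory sequence drives Cre in endothelium and also in some blood cells. The names of the Gata4 KO libraries hold a single number each. Control 1 has a name that joins a pair of numbers, and for control 2 the description joins a pair but the title gives a single number, so the labels do not settle whether control animals were pooled; any such pooling and the genotype cannot be told apart. All values below are log2 values relative to a gene's own median over the 4 libraries. They compare libraries within a gene and carry no expression level, so neither the rank of these genes in endothelium nor the endothelial label itself can be read from them.

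Glucocorticoids enter the cell and bind the receptor encoded by Nr3c1, which then leaves its chaperones, moves to the nucleus and binds DNA at palindromic response elements. Genes switched on this way include Fkbp5 and Tsc22d3, which restrain the receptor and inflammatory signalling, and Zbtb16 and Sgk1. Metallothioneins are small cysteine-rich proteins that hold zinc and copper; they are induced by metals through the factor Mtf1 and also by glucocorticoids and oxidative stress. In endothelium, glucocorticoids are known for dampening the expression of inflammatory genes and for tightening the barrier.

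Both groups of libraries differed in more than the gene named in their labels. Gata4 had -0.14 and -0.46 in the Gata4 KO libraries, against 0.48 and 0.14 in the controls (a difference of -0.61 on the log2 scale with limma adjusted p = 0.663), the direction of the labels. Xist had 2.76 and 3.71 in Gata4 KO libraries and the lowest value, -2.76, in both controls, and 4 Y-linked genes were lowest, and tied, in the Gata4 KO pair, so the effects of sex and of genotype cannot be told apart. All 17 fibroblast markers that varied, of 18 fixed, were below both controls (100%, against 17.3% of all genes that varied). The list mean was -0.38 and -0.94 in Gata4 KO libraries and 1.27 and 0.37 in controls. In such bulk samples fewer cells of a type and less RNA per cell cannot be told apart.

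The annotated promoters of 7 of the 10 genes were available from RefSeq on GRCm38.p6, the same build as mm10, as 16 windows of which the 250 bases before the start were searched; Zbtb16, Cebpd and Nr3c1 had none. The 3 stretches of 250 bases and the 30 bases of Mt1 shown here are those that hold a full response element for glucocorticoids, metals or cyclic AMP, written 5′ to 3′; windows with a single arm of the palindrome are not shown. Capitals mark the glucocorticoid response element (AGAACA, any 3 bases and TGTTC, on either strand) in Sgk1, the metal response element (TGCACNC or TGCGCNC on either strand) in Mt2 and Mt1, and the cyclic AMP response element (TGACGTCA) in Errfi1.
Sgk1, chr10:21993640-21993889, + strand: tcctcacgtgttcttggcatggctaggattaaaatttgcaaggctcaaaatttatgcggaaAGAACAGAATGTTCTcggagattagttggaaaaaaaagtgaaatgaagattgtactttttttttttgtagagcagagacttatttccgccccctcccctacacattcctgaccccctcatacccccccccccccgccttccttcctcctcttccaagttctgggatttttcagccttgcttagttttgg
Mt2, chr8:94172368-94172617, + strand: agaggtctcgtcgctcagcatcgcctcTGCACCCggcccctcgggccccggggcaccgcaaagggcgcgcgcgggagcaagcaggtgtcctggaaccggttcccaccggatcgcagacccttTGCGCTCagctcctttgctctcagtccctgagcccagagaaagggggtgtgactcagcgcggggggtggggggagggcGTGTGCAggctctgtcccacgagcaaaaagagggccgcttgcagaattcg
Mt1, chr8:94179055-94179084, + strand: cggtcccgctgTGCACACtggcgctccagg
Errfi1, chr4:150854820-150855069, + strand: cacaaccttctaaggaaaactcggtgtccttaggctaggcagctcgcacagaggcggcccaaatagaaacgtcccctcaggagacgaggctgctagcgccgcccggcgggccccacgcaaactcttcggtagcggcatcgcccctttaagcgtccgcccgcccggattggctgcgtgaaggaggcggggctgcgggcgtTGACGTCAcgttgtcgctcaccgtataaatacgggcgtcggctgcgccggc

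The full glucocorticoid response element stood in 1 of the 6 Sgk1 windows, 189 to 175 bases before that start, and there it is a perfect palindrome of both arms. Of all 32851 promoter windows in the table, 0.0304% held it. With at most 2 mismatches among its 11 fixed letters it was found in 4 of the 16 windows, 3 of Sgk1 and 1 of Mt1, against 5.54% of all windows. Its single arm AGAACA was found in 3 Sgk1 windows and 1 of the 3 Tsc22d3 windows, and is common (16.1% of windows). The metal response element occurred 3 times in the Mt2 window, which 0.77% of windows reach, and 1 time in that of Mt1 (at least 1 in 21.4%). The Mt1 window shares 7 bases with its annotated exons, so the counts of 3 and 1 depend on the starts used. The Tsc22d3 window with the single arm shares 137 of its 250 bases with annotated exons of that gene. The antioxidant element TGACNNNGC was found in the Mt2 window (10.2% of windows) and the cyclic AMP response element in 1 of the 2 Errfi1 windows (1.55%). The windows of Fkbp5 and Cdkn1a held none of these letters in the 250 bases searched. These matches describe letters; binding was not measured, and windows of 1 gene share its locus.

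Across the 10 genes the Gata4 KO libraries showed no common direction. Sgk1 and Errfi1 had both Gata4 KO values above both controls, Zbtb16, Fkbp5 and Mt2 had both below, and Mt1, Nr3c1, Cebpd, Cdkn1a and Tsc22d3 overlapped. Of all 14470 genes that varied between libraries, 15.7% lay above both controls and 17.3% below, so 2 and 3 of 10 are counts near the background. The median log2 difference was -0.08 over the 10 genes and -0.01 over all genes tested. None of the 10 passed an adjusted p of 0.05 by limma, which called 0% of all genes. At an unadjusted p of 0.05, 2 members were higher and 2 lower, against 2.76% of all genes higher and 5.36% lower. Without tied genes 3 members were lower, and 3 after quantile normalization, which was also run without tied genes. The count of lower members was 0 with library weights and 0 without control 1 or without control 2, and the count of higher members was 1 without Gata4 KO replicate 1 or without Gata4 KO replicate 2; Errfi1 kept an unadjusted p under 0.05 in each of these refits. For a single gene, an exact two-sided permutation test of 2 against 2 libraries allows no p below 0.333, so every difference here is given as a size with its interval.

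**Figure D1:**
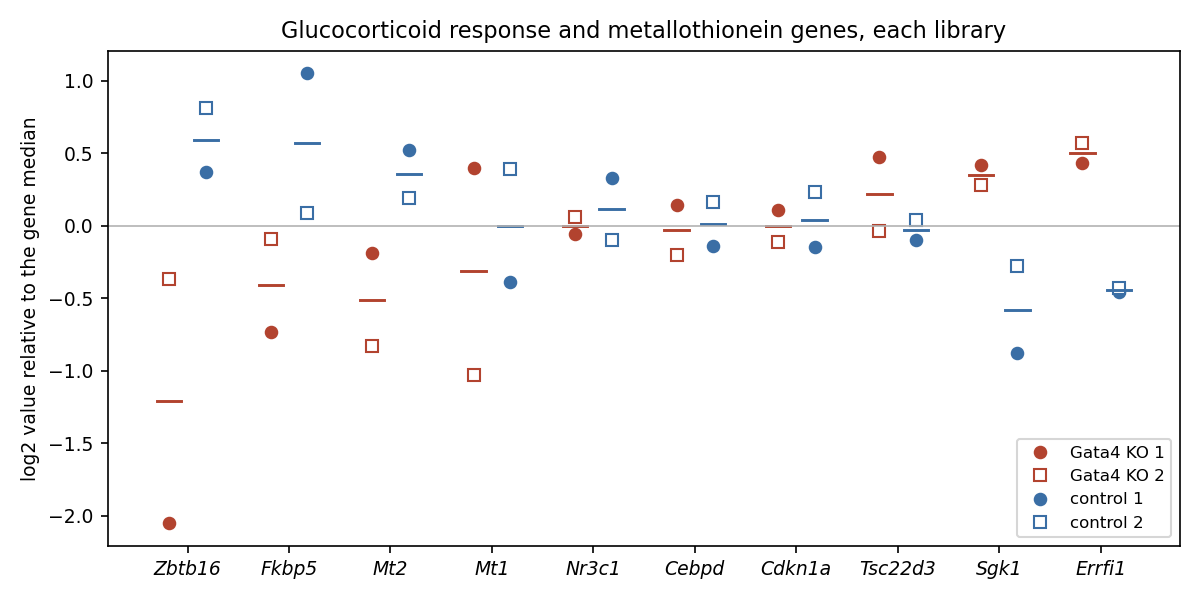
Log2 value of each gene relative to its own median over the 4 libraries, with Gata4 KO in red left of control in blue, filled circles for replicate 1, open squares for replicate 2 and bars for group means. Sgk1 and Errfi1 stand higher in both Gata4 KO libraries, Zbtb16, Fkbp5 and Mt2 lower, and the Mt1 values of the Gata4 KO libraries lie at 0.40 and -1.03.

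Nr3c1, the gene of the glucocorticoid receptor, had -0.06 and 0.06 in the Gata4 KO libraries, against 0.33 and -0.10 in the controls, so the groups overlapped. The controls differed by 0.43, a wider gap than in 57.2% of genes without ties. The log2 difference was -0.12 with a 95% interval of -0.77 to 0.54 (adjusted p = 0.944, limma), which leaves room for a change of moderate size in either direction, and it was 0.10 without control 1.

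Fkbp5 encodes a co-chaperone that lowers the affinity of the receptor for its hormone and is itself a receptor target. It is a long gene on chromosome 17 (28399094 to 28517527, minus strand). Its values were -0.73 and -0.09 in the Gata4 KO libraries, against 1.05 and 0.09 in the controls. The groups did not overlap, but only 0.17 separated the nearer library of each, and control 1 stood far above the other 3. The difference was -0.98 (standard error 0.43, 95% interval -2.07 to 0.12, limma adjusted p = 0.672), a 1.97-fold lower value, and it was -0.50 without control 1. The fibroblast list, too, had its highest mean in control 1. Its lowest mean, -0.94, was in Gata4 KO replicate 2, whereas Fkbp5 was lowest in Gata4 KO replicate 1. The part of fibroblast RNA in the Fkbp5 values was not tested.

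Zbtb16, which encodes the zinc-finger repressor PLZF and is among the most inducible glucocorticoid targets in many human cells, had the widest difference of the 10 (chromosome 9, 48654297 to 48836222, minus strand). It had -2.05 and -0.37 in the Gata4 KO libraries, against 0.37 and 0.81 in the controls. Both Gata4 KO values were lower, with replicate 1 far below replicate 2. The log2 difference of -1.80 (standard error 0.59, 95% interval -3.32 to -0.29, limma adjusted p = 0.533) was larger in size than that of 99.2% of tested genes. So was the gap between the Gata4 KO libraries, 1.67, wider than in 99.2% of genes without ties. Without Gata4 KO replicate 1 the difference was -0.96. PLZF also marks innate-like lymphocytes. Of 12 lymphocyte markers, 7 had 1 identical value in every library and 4 of the other 5 had tied libraries, with differences from -0.32 for Cd79a, a B cell gene, to 0.83 for Trac, a T cell receptor gene, and 0.88 for Nkg7, a gene of cytotoxic cells. The part of lymphocyte RNA in the Zbtb16 values was not tested.

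Sgk1, the serum- and glucocorticoid-regulated kinase gene that carries the palindrome shown above, ran the other way (chromosome 10, 21882184 to 21999903, plus strand). It had 0.42 and 0.28 in the Gata4 KO libraries, against -0.88 and -0.28 in the controls. The Gata4 KO libraries lay close together and 0.56 separated them from the nearer control. The log2 difference was 0.93 (standard error 0.29, 95% interval 0.19 to 1.67, limma adjusted p = 0.505), 1.90-fold, and 0.63 to 1.23 when any single library was left out. Gene-level values do not tell which of the annotated Sgk1 starts was used.

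Errfi1 encodes MIG6, an inhibitor of the EGF receptor family that is induced by growth factors and by glucocorticoids (chromosome 4, 150853919 to 150868892, plus strand). Its values were 0.43 and 0.57 in the Gata4 KO libraries, against -0.46 and -0.43 in the controls. The controls differed by 0.02 and the Gata4 KO libraries by 0.14, and 0.87 lay between the groups, the widest separation among the 10. The log2 difference was 0.95 (standard error 0.22, 95% interval 0.39 to 1.503). Its limma adjusted p was 0.396, with an unadjusted limma p of 0.00732. It stayed between 0.88 and 1.01 without any single library.

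Tsc22d3 encodes GILZ, the glucocorticoid-induced leucine zipper protein that carries much of the anti-inflammatory action of the hormone. It had 0.47 and -0.04 in the Gata4 KO libraries, against -0.10 and 0.04 in the controls. Gata4 KO replicate 1 stood above the other 3, which lay within a narrow band. The log2 difference was 0.24 (95% interval -0.46 to 0.94, limma adjusted p = 0.887), and -0.02 without that library. Tsc22d3 lies on the X chromosome, where the 437 genes tested had a median difference of 0.02; with Xist high in Gata4 KO only, its sex and genotype parts cannot be told apart.

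Cebpd, which encodes the acute-phase factor C/EBP delta, had 0.14 and -0.20 in the Gata4 KO libraries, against -0.14 and 0.16 in the controls. Cdkn1a, which encodes the cell cycle inhibitor p21, a target of both p53 and the receptor, had 0.11 and -0.11 in the Gata4 KO libraries, against -0.15 and 0.23 in the controls. In both genes the groups interleaved. The differences were -0.05 for Cebpd (95% interval -0.70 to 0.61) and -0.04 for Cdkn1a (95% interval -0.69 to 0.61). A log2 change of 1 in either direction lies outside both intervals, as it does for Nr3c1. Changes of moderate size in either direction lie within them.

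**Figure D2:**
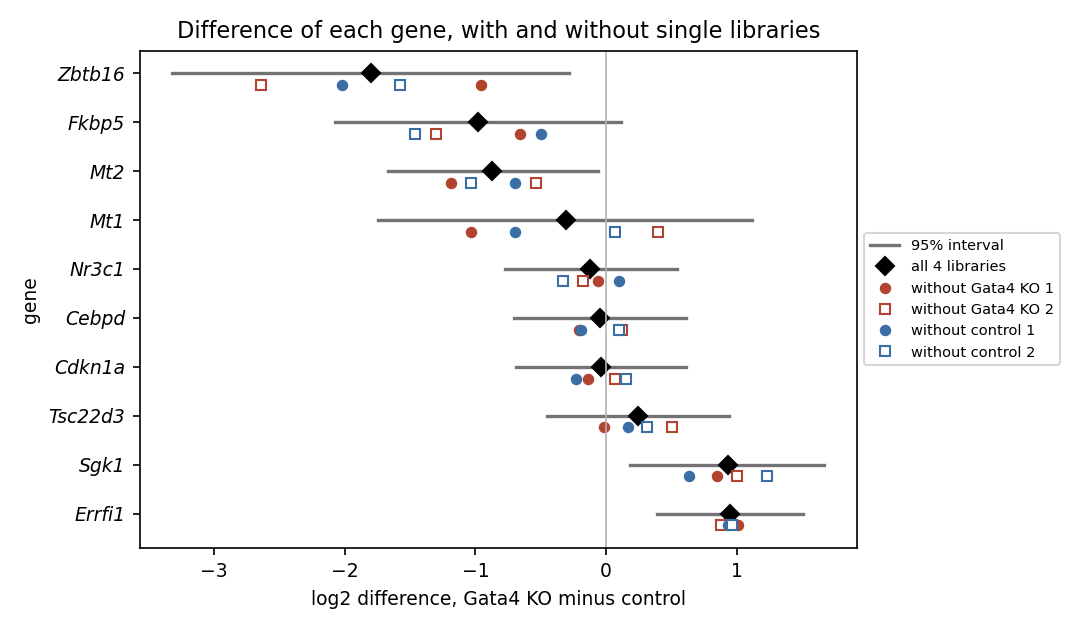
Log2 difference of each gene, Gata4 KO minus control: black diamonds use all 4 libraries, grey bars are 95% intervals from limma, and the smaller symbols below each bar leave out 1 library. For Errfi1 and Sgk1 every symbol lies above 0 and for Zbtb16, Fkbp5 and Mt2 every symbol lies below 0. Groups that do not overlap must keep their sign when 1 library is left out, so these signs restate that placement. The other 5 genes have symbols on both sides.

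The metallothionein genes Mt2 and Mt1 are neighbours on chromosome 8, with 5513 bases between the end of Mt2 (94172664 to 94173568) and the start of Mt1 (94179082 to 94180327), both on the plus strand. Mt2 had -0.19 and -0.83 in the Gata4 KO libraries, against 0.52 and 0.19 in the controls. Both Gata4 KO values were lower, and 0.38 separated the groups. The log2 difference was -0.87 (standard error 0.31, 95% interval -1.67 to -0.06, unadjusted p = 0.04, adjusted p = 0.572, limma), 1.82-fold, and -0.54 without Gata4 KO replicate 2.

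Mt1 did not share that order. It had 0.40 and -1.03 in the Gata4 KO libraries, against -0.39 and 0.39 in the controls. The Gata4 KO libraries held both its highest and its lowest value, a gap of 1.42 that was wider than in 98.3% of genes without ties. The log2 difference of -0.31 had a 95% interval of -1.75 to 1.12 (limma adjusted p = 0.929), and was 0.40 without Gata4 KO replicate 2 and -1.03 without Gata4 KO replicate 1. Measured within a library, Mt2 minus Mt1 was -0.59 and 0.19 in Gata4 KO and 0.91 and -0.20 in controls. The neighbours therefore kept no fixed ratio. In common they had only that both were lowest in Gata4 KO replicate 2, where the fibroblast list was lowest as well, at -0.94. That list was highest in control 1, at 1.27, where Mt2 was highest too but Mt1 had -0.39. The genes are similar in sequence, how reads were assigned to them is not stated in the labels or headers, and 432 of the 588 exonic bases of Mt2 overlap an annotated antisense gene, so both values are uncertain. Mt3 and Mt4, the brain and squamous epithelial family members, had the same value in every library.

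Exons of Cdkn1a and Cebpd also overlap genes on the opposite strand, by 273 and 562 bases. Whether counting used strand is not given, and reads of these partners cannot be told apart from those of the member.

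Markers of other cells moved with some of these values. The macrophage list had 12 of its 16 varying markers (of 17 listed) below both controls (75%, against 17.3% of all genes). Its means were -0.50 and -0.26 in Gata4 KO libraries and 0.57 and 0.11 in controls. Its lowest library, Gata4 KO replicate 1, was also the lowest for Zbtb16 and Fkbp5. Its highest library was control 1, as for Fkbp5, whereas Zbtb16 was highest in control 2. The cardiomyocyte list had 10 of 18 below (55.6%, against 17.3%), with means of -0.09 and -0.57 in Gata4 KO libraries and 0.26 and 0.27 in controls. This list was lowest in Gata4 KO replicate 2, as were Mt1 and Mt2. Mt1 was highest in Gata4 KO replicate 1, where this list was below both controls. The lymphatic endothelial list had 6 of 7 markers below both controls (85.7%, against 17.3%) and a median difference of -1.63. Its means were -0.48 and -1.11 in Gata4 KO libraries and 0.67 and 0.75 in controls, lowest in Gata4 KO replicate 2. The eGFP+ CD31+ sort is meant to leave out fibroblasts and cardiomyocytes, while lymphatic endothelial cells carry CD31. The part of lymphatic, fibroblast, macrophage or cardiomyocyte RNA in the lower values of Zbtb16, Fkbp5 and Mt2 was not tested. Among the largest differences on the fibroblast, macrophage and cardiomyocyte lists were those of Mfap4 (-2.06) and Dcn (-1.90), matrix genes of fibroblasts, Mrc1 (-1.93) and C1qa (-1.39), genes of macrophages, and Myl7 (-4.69, tied in Gata4 KO) and Tcap (-1.12), sarcomere genes. On the lymphatic list Mmrn1, an extracellular matrix gene, had -2.58 and Prox1, the lymphatic fate factor gene, -1.63. The median was -0.09 for markers of pericytes and smooth muscle and 0.07 for those of neutrophils and platelets, but single genes differed widely. Of 12 pericyte and smooth muscle markers 1 was above both controls and 4 below (33.3%, against 17.3% of all genes), with Cnn1 at -2.17. Of 9 varying neutrophil and platelet markers 1 was above, Retnlg (1.12, tied in controls). On that list 3 were below (33.3%), among them the platelet genes Ppbp (-1.61) and Gp9 (-1.37). Endothelial markers ran from -0.20 to 1.03 in their differences, with a median of 0.09. Of 17, 7 were above both controls (41.2%, against 15.7% of all genes) and 0 below (0%, against 17.3%). Highest were Cldn5, a tight junction gene (1.03), and Sox17, an arterial factor gene (0.61). The part of endothelial RNA in the higher values of Sgk1 and Errfi1 was not tested. Beside Sgk1 and Errfi1, the list of immediate early and dissociation response genes had 23 of 29 genes above both controls (79.3%, against 15.7%). On that list 1 gene was below (3.45%, against 17.3%). Its means were 0.21 and 0.39 in Gata4 KO libraries and -0.43 and -0.36 in controls. Its median log2 difference was 0.77. Egr3, an immediate early factor gene, differed by 1.95, Nr4a1, an orphan nuclear receptor gene, by 1.76, and Btg2, an antiproliferative gene, by 1.19 (limma adjusted p = 0.297, 0.410 and 0.382). The mean of the early response list, like Sgk1 and Errfi1, was higher in both Gata4 KO libraries than in both controls, and lowest in control 1. It was highest in Gata4 KO replicate 2, as was Errfi1 (0.57), whereas Sgk1 was highest in Gata4 KO replicate 1 (0.42). The part of that response in the values of Sgk1 and Errfi1 was not tested.

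**Figure D3:**
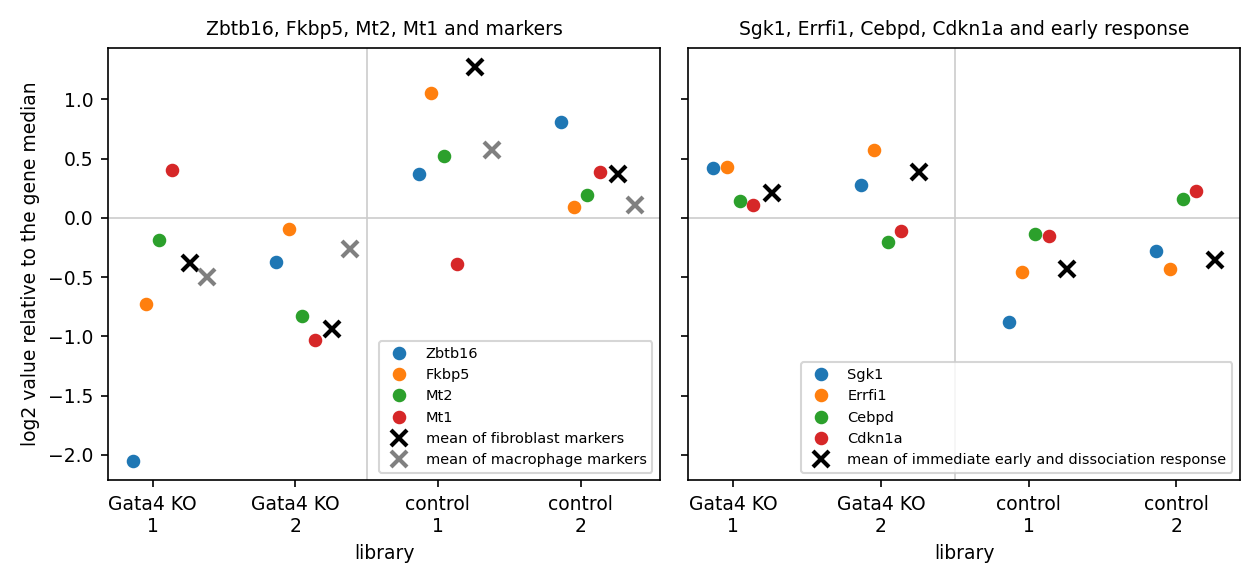
Log2 values relative to the gene median in the 4 libraries, for Zbtb16, Fkbp5, Mt2 and Mt1 with the means of the fibroblast and macrophage markers (left) and for Sgk1, Errfi1, Cebpd and Cdkn1a with the mean of the immediate early and dissociation response genes (right). Fibroblast markers average -0.38 and -0.94 in Gata4 KO libraries and 1.27 and 0.37 in controls, and early response genes 0.21 and 0.39 against -0.43 and -0.36.

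Other genes known to be induced by glucocorticoids lay on both sides of 0. Of 30 fixed, 27 varied, with 9 above both controls (33.3%, against 15.7% of all genes) and 6 below (22.2%, against 17.3%), so that both shares were above those of all genes while the median log2 difference was -0.01; none passed an adjusted p of 0.05. The lowest was Klf15, the gene of a receptor-induced metabolic regulator, at -0.80 in both Gata4 KO libraries, which is its lowest value, against 1.10 and 0.80 in the controls. That is at least 3.37-fold lower (limma adjusted p = 0.241), with a p that may be too small because tied libraries show no spread. Per2, a clock gene that the receptor also induces, was tied in Gata4 KO in the same way and at least 2.42-fold lower. Gpx3, which encodes the secreted glutathione peroxidase, had -0.51 and -1.30 in Gata4 KO libraries, against 0.77 and 0.51 in controls, a log2 difference of -1.55. Lcn2, an acute-phase gene for an iron-carrier-binding lipocalin, had a difference of -0.99 that came from Gata4 KO replicate 2 at -1.81.

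Per1, another clock gene, had a difference of -0.09 and Klf9, a repressor gene induced in many tissues, one of -0.29, with overlapping groups in both. Among the genes above both controls were Dusp1, a phosphatase gene that ends MAP kinase signalling, with 0.77 and Cebpb, the relative of Cebpd, with 0.66 (limma adjusted p = 0.679 and 0.561). Dusp1 is also in the early response list.

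The receptor machinery list holds genes that set hormone supply, fold the receptor or act as its coactivators, corepressors and chromatin remodellers. Its median log2 difference was 0.18 over all 28, with 9 above both controls (32.1%, against 15.7% of all genes) and 3 below (10.7%, against 17.3%). All 9 above were chaperone or co-chaperone genes. Genes of coactivators, corepressors and chromatin remodellers had overlapping groups, apart from Nrip1, which was below both controls (-0.53). Nr3c2, the mineralocorticoid receptor gene that binds the same hormones, had -0.47 and -0.25 in Gata4 KO libraries, against 0.73 and 0.25 in controls (a difference of -0.84 with a standard error of 0.27; adjusted p = 0.523, limma). Hsd11b1, whose enzyme regenerates active glucocorticoid, had 0.15 and -0.48 in Gata4 KO libraries, against 2.09 and -0.15 in controls, so its difference of -1.14 rests on control 1. Higher were the chaperone genes Dnajb1 (1.12), Stip1 (0.89) and Hspa1a (0.85), all with both Gata4 KO values above both controls; Dnajb1 and Hspa1a are also in the immediate early and dissociation response list. Fkbp4, the partner of Fkbp5 that favours receptor transport, differed by 0.29. Without control 2 the median of the list was 0.01.

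Of 30 genes of metal handling 24 varied, from -0.66 to 0.71 around a median of -0.08. Of these, 3 were above both controls (12.5%, against 15.7% of all genes) and 6 below (25%, against 17.3%). Mtf1, the metal-sensing factor gene, had 0.01 and 0.70 in Gata4 KO libraries, against -0.01 and -0.20 in controls, and Slc30a1, the zinc exporter gene that Mtf1 also induces, differed by 0.13. The outer values belonged to Slc39a10, a zinc importer gene, at 0.71 and Cox17, a copper chaperone gene, at -0.66. Gclc, the gene of a ligase subunit in glutathione synthesis, differed by -0.63 and Slc39a13, a zinc transporter gene, by -0.52. None reached an unadjusted p of 0.05.

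Around Cdkn1a, p53 targets had a median of 0.00 over 24 varying genes, Cdkn1a included. Of these, 4 were above both controls (16.7%, against 15.7% of all genes) and 5 below (20.8%, against 17.3%). Mdm2, the gene of the p53 ligase, differed by 0.35 and Ccng1, another direct target, by -0.58. Btg2 (1.19) and Plk2, a polo-like kinase gene (0.80), were above both controls, and Fas, the death receptor gene, was below (-1.10); Perp, a junction gene, had 0.72 from a single high Gata4 KO library.

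Around Errfi1, Egfr itself was tied at its lowest value in both Gata4 KO libraries and at least 1.93-fold lower (log2 difference -0.95, limma adjusted p = 0.623), with control 1 at 1.20. Tgfa, a ligand gene of that receptor, was at least 1.82-fold lower and Hbegf, another ligand gene, differed by 0.70. Of 16 genes on this list 11 varied, with a median of 0.01. Of these, 3 were above both controls (27.3%, against 15.7% of all genes) and 4 below (36.4%, against 17.3%).

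In the SGK1 pathway 16 of 20 genes varied, 1 above both controls (6.25%, against 15.7% of all genes) and 4 below (25%, against 17.3%). The lowest difference was -0.50 for Rictor, the subunit gene of the kinase complex that activates SGK1. The highest was 0.27 for Foxo1, a transcription factor gene inhibited by SGK1. Rictor had a 95% interval of -1.116 to 0.109. Foxo3, a relative of Foxo1, had -0.30 and Tsc2, a growth inhibitor gene, -0.28, both below both controls. The median was 0.04, and -0.11 to 0.14 when single libraries were left out.

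Among families of the 10 genes 25 of 31 varied (median -0.04). On this list 6 were above both controls (24%, against 15.7% of all genes) and 7 below (28%, against 17.3%). Fkbp7, Fkbp14 and Fkbp10, which encode folding enzymes of the endoplasmic reticulum, had differences of -1.38, -0.94 and -0.93. In each, the 2 groups stood apart, with Gata4 KO lower, as for the varying fibroblast markers. The size for Fkbp7 came from Gata4 KO replicate 2 at -2.21. Its replicate 1 had -0.12, against 0.31 and 0.12 in the controls. Fkbp9 differed by 0.23, with overlapping groups. Sgk3, a kinase relative of Sgk1, differed by 0.04, and Sgk2, another, had the same value in every library.

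**Figure D4:**
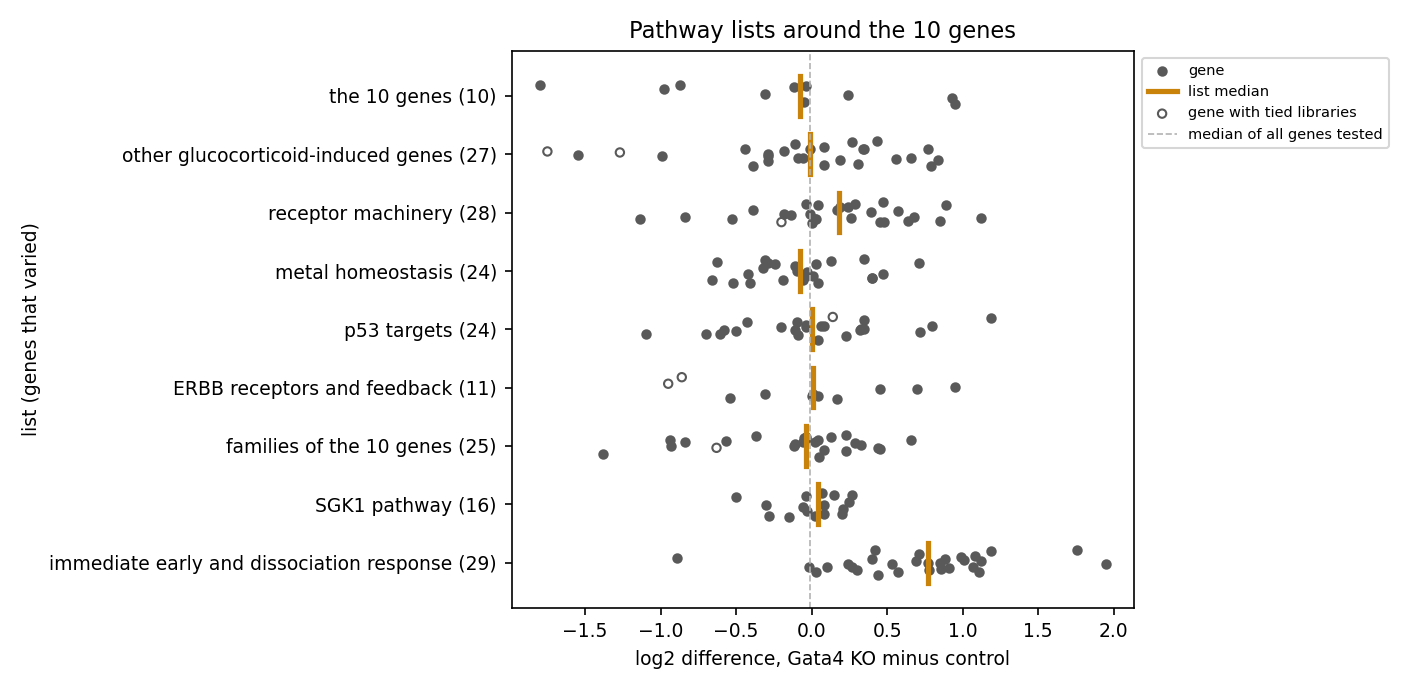
Log2 difference of every gene that varied, Gata4 KO minus control, for the 10 genes and the lists around them; open circles are genes with tied libraries, orange bars list medians, and the dashed line the median of all genes tested. Immediate early and dissociation response genes have a median of 0.77, and the other list medians lie between -0.08 and 0.18.

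The genes with values closest to those of Errfi1 over the 4 libraries, by Euclidean distance among 11893 others without ties, were 9130019O22Rik (0.0567), A630052C17Rik (0.107), Tox2 (0.111), Msh5 (0.113) and Gsto1 (0.117), with log2 differences of 0.90, 0.92, 1.00, 0.87 and 0.87. Closest to Zbtb16 were Gm17218 (0.442), Fam71a (0.682), Syp (0.699), Ifi205 (0.763) and Gm3345 (0.769), with differences of -1.54, -1.20, -1.76, -1.51 and -1.38. With 4 libraries many genes share an order. The distances around Zbtb16 were wider than those around Errfi1.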

How the data were processed

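The authors deposited log2 values of 4 libraries in a pair of tables, split by direction, exported with fold changes on Ensembl genes, per the file headers; the submitters' processing notes name mm10 as genome build. Aligner, counting, unit before the logarithm and library scaling were not given in the sources used here. Depth is unknown, and no interval that needs counts was made. Every gene was centred on its median (tolerance 1e-05). Both tables were joined, and 14470 of 38087 genes varied (tolerance 2e-06), 2576 of them with tied libraries at the lowest value; a fold against such a group is a lower bound.

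The difference Gata4 KO minus control was fitted with limma 3.58.1 under R 4.3.3 (lmFit, eBayes without mean trend, 2.96 prior and 2 residual degrees of freedom, two-sided), with Benjamini-Hochberg adjustment over all 14470 genes and a threshold of 0.05. The scripts were tested on simulated data. Since separate animals are not stated, p-values reflect only how much these libraries vary, part of which may be technical. Replicate numbers follow deposition order and pair nothing. The 10 genes and all lists were chosen with earlier results of these data known. Named were all 10 genes, the 4 genes of each pathway list with the largest differences, genes of stated roles, leading markers of cell types a result touches, and the 5 nearest to the highest and lowest member. Coordinates come from GENCODE M21 and promoters from RefSeq.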

Additional observations from a re-analysis of the deposited data

How the results depend on the processing

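In all 60 refits of the 10 genes that kept the 4 libraries, each difference kept its sign (mean trend, no tied genes, equal library medians, quantile normalization, robust prior, library weights). A mean trend, a robust prior and the removal of tied genes alter the p but cannot alter a member's difference. Library weights gave the same rounded differences. Only equal library medians and quantile normalization moved any of them, so most of these agreements in sign say nothing about stability. None of these 60 refits gave a member a limma adjusted p under 0.05 (lowest 0.196). Over all genes limma called 0 as planned and 399 higher and 776 lower at an unadjusted p of 0.05. It called 27 with a mean trend, 8 with equal library medians, 9 after quantile normalization, 7 with a robust prior and 51 without tied genes. Quantile normalization was also run without tied genes, on the same 11894 genes, so its departures from the main fit combine both steps. Leaving out single libraries gave 275 to 874 genes higher and 358 to 1398 lower at the unadjusted p (874 higher without control 1; 1398 lower without control 2, 358 without Gata4 KO 2 and 435 without Gata4 KO 1), and 0 adjusted calls in each. Among the 10 genes the unadjusted p gave 2 higher and 2 lower as planned. It gave 3 lower after quantile normalization, 3 lower without tied genes and 0 lower with library weights. With a mean trend 2 were lower, but Zbtb16 had an unadjusted limma p of 0.11 and Fkbp5 one of 0.0434. Without single libraries the differences ranged from -2.64 to -0.96 for Zbtb16, -1.46 to -0.50 for Fkbp5 and -1.19 to -0.54 for Mt2. Signs were lost in others, with -1.03 to 0.40 for Mt1, -0.33 to 0.10 for Nr3c1, -0.21 to 0.12 for Cebpd, -0.23 to 0.15 for Cdkn1a and -0.02 to 0.50 for Tsc22d3; the cause was not tested. List medians ranged from -0.21 to 0.10 for the 10 genes, -0.05 to 0.04 for other glucocorticoid-induced genes (0.08 after quantile normalization and 0.08 without tied genes), 0.01 to 0.31 for receptor machinery, -0.18 to 0.03 for metal homeostasis, -0.06 to 0.07 for p53 targets, -0.14 to 0.22 for ERBB genes, -0.09 to 0.02 for families of the 10 genes (0.02 after quantile normalization), -0.11 to 0.14 for the SGK1 pathway and 0.58 to 0.85 for the immediate early list. No paired analysis was possible because the labels carry no replicate number that the groups share. With 2 libraries a group, the width of each interval limits how precisely a difference is known.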
